A study of Mus musculus with 6 samples.

Results

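Wide CTCF peaks that were listed in freshly isolated satellite cells (FISC), and that lay far from any peak of quiescent satellite cells (QSC), numbered 1108. They were chosen from the deposited FISC peak list as intervals of at least 440 bp on an autosome with no QSC interval within 10 kb, measured edge to edge. The FISC list holds 17520 intervals, of which 17124 lie on the 19 autosomes, and both lists together hold 36923. The members thus made up 6.47% of the autosomal FISC list (95% Wilson interval 6.11 to 6.85) and covered 574 kb, 8.58% of the 6684 kb covered by all autosomal FISC intervals. Width and distance to QSC chose the members, so both are given below as descriptions.

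The cells were muscle stem cells of C57BL/6 mice that carry a Pax7-nGFP reporter, taken at postnatal day 38. The reporter marks cells that express Pax7, the transcription factor that defines satellite cells, and both states carry it. FISC are labelled as freshly isolated and QSC as quiescent, and the labels describe no other treatment. How quiescence was kept in the QSC preparation, and how many mice gave each library, is not given in the sources used here. Chromatin was sonicated and recovered with an antibody against CTCF, in 2 ChIP libraries and 1 input library per state, 6 samples in all. Each state is represented by 1 peak list, which gives the position of each interval and nothing else.

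CTCF, a DNA-binding protein with an array of zinc fingers, recognises an extended motif and halts the cohesin complex as it extrudes chromatin loops. Sites bound by CTCF mark many loop anchors and domain boundaries, and most strong sites are shared between cell types, while weaker sites differ more. Satellite cells rest in a quiescent state beside the muscle fibre, and taking them out of the tissue is known to start their activation. A CTCF site listed in one state and not in the other is therefore of interest to a study of chromatin folding during activation, which is the subject named in the series title.

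The lists hold no height, score, read count or replicate value, so the depth is unknown and width is the only property of a peak besides its position. With 1 list per state there is no spread between replicates, and no test was made between classes of intervals, since intervals of 1 list are not replicates. The 95% intervals printed here (Wilson for shares, binomial order statistics for medians) cover counting error only. Absence from the QSC list means that no peak was called at the place, and does not exclude CTCF binding there. Whether a listed interval holds a CTCF motif was not analysed here, and no gene names are attached, because no genome or annotation of build mm9 was used. All coordinates are mm9 and count from 1.

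Among the 4401 autosomal FISC intervals of at least 440 bp, the larger part overlapped a QSC interval. These 2780 intervals, 63.2% of the wide ones (61.7 to 64.6), are the comparison intervals. A further 513 (11.7%, 10.7 to 12.6) did not overlap but had a QSC interval within 10 kb. The 1108 members were 25.2% of the wide intervals (23.9 to 26.5). Among all autosomal FISC intervals, 42.1% had no QSC interval within 10 kb, and 42.2% overlapped one. Among the 12723 narrower ones, 48.0% were far (6106 intervals) and 34.9% overlapped. Since the distance chose the members, nothing is read from these shares. When overlapping intervals are set aside, 68.4% of the remaining wide intervals (66.05 to 70.6) and 73.8% of the remaining narrower intervals (72.8 to 74.7) lay over 10 kb from QSC.

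The share of far intervals was lower in wider classes, and the members come from the low end of that range. In the narrowest class, up to 279 bp, 63.8% of FISC intervals had no QSC interval within 10 kb (61.8 to 65.8). From 380 bp to just under the limit, the share was 36.6% (35.03 to 38.1). It was 27.9% (25.8 to 30.1) from 440 to 479 bp and 27.2% from 480 to 519 bp. From 520 to 799 bp the 3 classes lay between 20.5% and 22.8%. In the 145 intervals of 800 bp or more, 24 were members, which is 16.6% (11.4 to 23.4). The step at 440 bp is therefore a limit set along a gradient, not a break in the list.

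**Figure D1:**
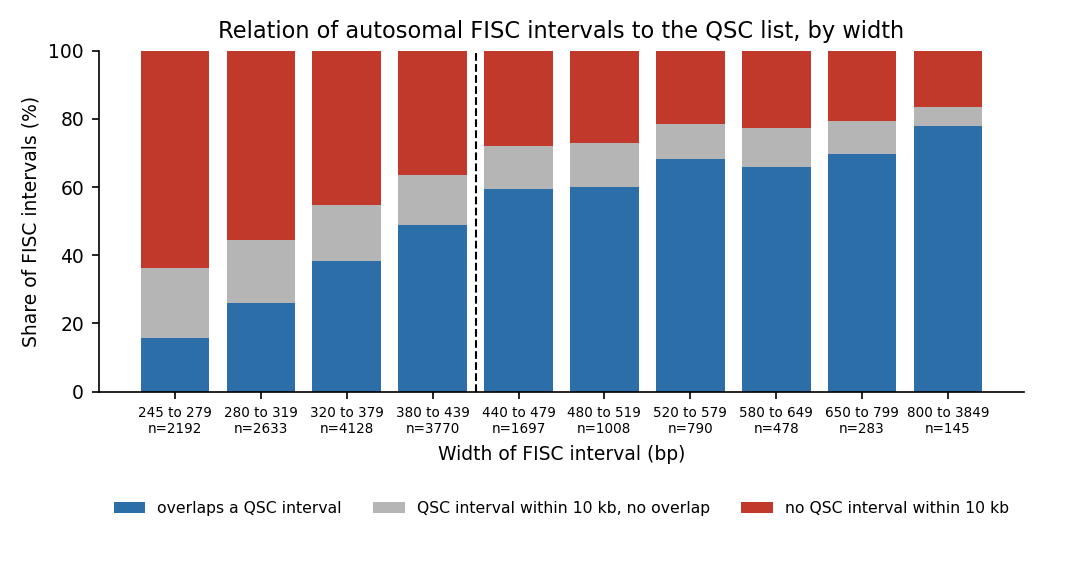
Share of autosomal FISC intervals (y axis, %) that overlap a QSC interval, have one within 10 kb without overlap, or have none within 10 kb, by width class in bp (x axis, with the number of intervals). The dashed line marks the limit of 440 bp, and the red part to its right holds the 1108 members, from 27.9% of the class of 440 to 479 bp to 16.6% of the class of 800 bp or more.

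Most members lay close above the width limit. Their median width was 487 bp (484 to 491), with quartiles of 461 and 546 bp and a widest interval of 1027 bp. The comparison intervals had a median of 502 bp (498 to 506), quartiles of 465 and 567 bp and a widest interval of 3849 bp. Of the members, 57.9% were under 500 bp, against 48.9% of the comparison intervals. At the wide end, 2.17% of members and 4.06% of comparison intervals (113 intervals) reached 800 bp. At the limit itself 18 members measured exactly 440 bp, and 13 far intervals missed it by 1 bp. Less than 10 bp above the smallest width allowed there were 128 members, and up to 10 bp below it there were 170 far intervals outside the class.

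The 5 widest members lay on 5 chromosomes. The widest was chr12:21117073-21118099, 1027 bp long, with the nearest QSC interval 35.1 kb to its left and the next 77.0 kb to its right. A narrow FISC interval of 259 bp followed it after 448 bp (0.448 kb), and another of 307 bp stood 21.7 kb away. The second was chr6:48035869-48036873, 1005 bp long and 51.6 kb from QSC, in a QSC-free stretch of 122 kb that held 1 more member, chr6:47997529-47998069, of 541 bp.

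The other widest members had at most 1 FISC companion in their stretch. The interval chr19:10463099-10464075 measured 977 bp and lay 47.0 kb from QSC, in a dense region with 34 other FISC and 22 QSC intervals within 500 kb. A single FISC interval of 423 bp shared its stretch, 46.4 kb away. The interval chr11:78832803-78833741 measured 939 bp and was the sole FISC interval in a QSC-free stretch of 38.1 kb. It lay 10.3 kb from QSC and so passed the distance limit narrowly. The fifth, chr5:3595938-3596831, measured 894 bp and lay 51.9 kb from QSC, with 6 FISC and 6 QSC intervals within 500 kb. A FISC interval of 253 bp shared its stretch, 50.04 kb away.

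Most members lay within 100 kb of a QSC interval, and the farthest lay 644 kb from one. The median distance to the nearest QSC interval was 38.5 kb (35.6 to 42.3), with quartiles of 20.7 and 76.3 kb. Between 10 and 20 kb stood 256 members (23.1%), between 20 and 50 kb 403 (36.4%), and between 50 and 100 kb 259 (23.4%). A further 157 (14.2%) lay between 100 and 200 kb, 22 between 200 and 300 kb, and 11 (0.993%) beyond 300 kb. The narrower far intervals had a median of 43.8 kb (42.6 to 45.2).

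Wide FISC intervals that did not overlap QSC were most numerous in the first kb from a QSC interval. Within the first kb of a QSC edge there were 109 such wide intervals, and 73 in the second kb. The count was 32 in the kb below the limit and 28 in the kb above it. No expected count was computed for any distance, so nothing is read from the fall or from where the limit lies on it. Nearest inside the limit were chr11:119770807-119771248 at 10.05 kb and chr5:67407664-67408165 at 10.08 kb. Nearest outside were chr14:34116469-34116915 at 9.97 kb and chr7:106513576-106514043 at 9.95 kb.

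Median width was nearly the same at every distance among the members. It was 486.5 bp from 10 to 20 kb, 486 bp from 20 to 50 kb, 491 bp from 50 to 100 kb, 487 bp from 100 to 200 kb, 481 bp from 200 to 300 kb and 486 bp beyond 300 kb. Over the same classes FISC intervals became sparser. The median number of other FISC intervals within 500 kb was 15 for members at 10 to 20 kb from QSC. It was 8 at 100 to 200 kb and 3 beyond 300 kb. The classes from 200 kb up hold 22 and 11 members. Width and distance chose the members, and distance to QSC moves with density, so nothing is read from either pattern.

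The opposite class had a longer reach. In the QSC list, 510 of 2537 autosomal intervals of at least 440 bp (20.1%, 18.6 to 21.7) had no FISC interval within 10 kb, against 50.6% of all autosomal QSC intervals. Their median distance to FISC was 66.9 kb (57.2 to 79.5), against 38.5 kb from members to QSC. Beyond 300 kb lay 90 of the 510 (17.6%), against 11 of the 1108 members. The 440 bp limit takes a smaller part of the QSC list, 2537 of 18669 autosomal intervals. At 376 bp, which takes the same share of the QSC list as 440 bp takes of the FISC list, 27.6% of wide QSC intervals were far (26.3 to 28.9) and 65.9% overlapped a FISC interval. This second limit was added after seeing the data. The lists differ in size and evenness over the genome, and the part of those differences in the longer reach was not tested.

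**Figure D2:**
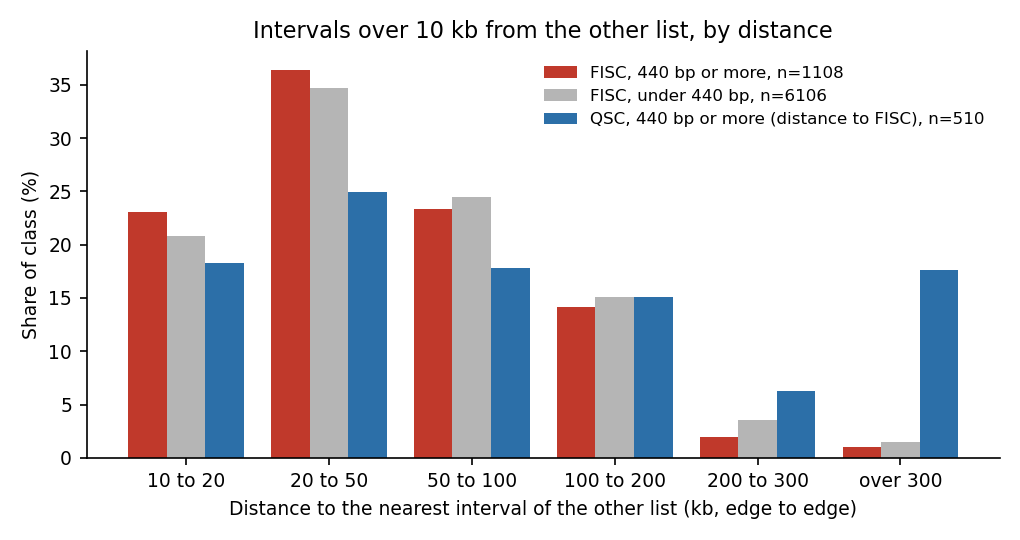
Share of each class (y axis, %) by distance to the nearest interval of the other list (x axis, kb, classes of unequal length) for the 1108 members, the 6106 narrower far FISC intervals and the 510 QSC intervals of at least 440 bp with no FISC interval within 10 kb. Members fall off to 0.993% beyond 300 kb, where 17.6% of the QSC class lies.

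The 5 members farthest from QSC stood in long stretches without a QSC interval, which follows from how they were picked. The farthest was chr10:35630782-35631229, 448 bp wide, with QSC intervals 644 kb to its left and 1012 kb to its right. This was also the longest QSC-free stretch with a member, 1657 kb, and it held 1 other FISC interval, the member chr10:36553860-36554494 of 635 bp, 923 kb away. No interval of either list lay within 500 kb of the farthest member. A second isolated member on the same chromosome, chr10:106369466-106370032 (567 bp), was the sole FISC interval in 1103 kb and lay 456 kb from QSC.

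The next stretches held more FISC intervals. The member chr14:12388844-12389408 (565 bp) lay 595 kb from QSC in a stretch of 1242 kb. Its 6 companions there measured 287 to 362 bp, so it was the one wide interval among 7. On chromosome 17 the members chr17:63133297-63133752 (456 bp) and chr17:63233406-63233891 (486 bp) lay 99.7 kb apart in a stretch of 956 kb. They were 469 and 386 kb from QSC, and the third FISC interval of the stretch measured 402 bp.

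Members had fewer FISC intervals close by than comparison intervals had. The nearest other FISC interval lay a median of 26.5 kb away (24.2 to 28.7), with quartiles of 11.8 and 59.1 kb. For comparison intervals the median was 15.1 kb (13.9 to 16.3), with quartiles of 4.53 and 38.6 kb, so the middle ranges of the classes overlap. The narrower far intervals stood farther apart still, at 33.2 kb (31.9 to 34.6), and the narrower overlapping ones at 18.8 kb (17.7 to 19.9). Over all autosomal FISC intervals the median was 20.1 kb.

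A FISC neighbour within 10 kb was present for 237 members, 21.4% (19.1 to 23.9), and for 40.3% of comparison intervals (38.5 to 42.2), beside 34.2% of all autosomal FISC intervals. Within 2 kb the shares were 6.41% (5.11 to 8.01) and 13.1% (11.9 to 14.4), beside 10.7% of all. The distance rule has a part in this difference. A FISC interval that overlaps QSC can hardly stand within 10 kb of a member, and none did: of the 237 close neighbours 224 were themselves over 10 kb from QSC and 13 were nearer to it without overlap. With only neighbours more than 10 kb away counted for both classes, an alternative added after seeing the data, the medians were 35.5 kb for members and 30.1 kb for comparison intervals.

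The nearest FISC neighbours of members fell into every class. For 607 members (54.8%) it lay over 10 kb from QSC, 516 times as a narrower interval and 91 times as another member. For 393 members (35.5%) it overlapped a QSC interval, in 126 cases as a wide one. For the remaining 108 it lay within 10 kb of QSC without overlap. The distance rule bears on these counts, since a neighbour within 10 kb of a member can hardly overlap QSC. For 871 members the nearest neighbour stood more than 10 kb away. It was far from QSC for 383 of them (44.0%), beside 42.1% of all autosomal FISC intervals. Those neighbours were picked by spacing and the whole list was not, so nothing is read from the closeness of the shares.

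Farther out, the surroundings of the classes overlapped broadly, although the distance rule still bears on them, since distance to QSC moves with density. In a ring of 20 to 500 kb on each side, added after seeing the data, a member had a median of 11 other FISC intervals (10 to 11; quartiles 7 and 18) and a comparison interval 14 (13 to 14; quartiles 8 and 20). The same ring held a median of 10 QSC intervals around members and 12 around comparison intervals. Summed over all rings, there were 1.12 FISC intervals per QSC interval around members, 1.16 around comparison intervals, 1.07 around the narrower far intervals and 1.12 around all autosomal FISC intervals. Counted per interval, the ring held more FISC than QSC intervals for 53.2% of members (50.3 to 56.2), 62.7% of comparison intervals (60.9 to 64.5) and 55.1% of all autosomal FISC intervals.

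The kinds of neighbour differed by a few percentage points between classes. In the rings around members 28.3% of FISC neighbours reached 440 bp, against 30.03% around comparison intervals and 29.1% around all. Of these wide neighbours, 23.0% were themselves members, against 20.7% around comparison intervals and 22.3% around all. Rings of neighbouring intervals overlap, so these pooled shares carry no interval.

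**Figure D3:**
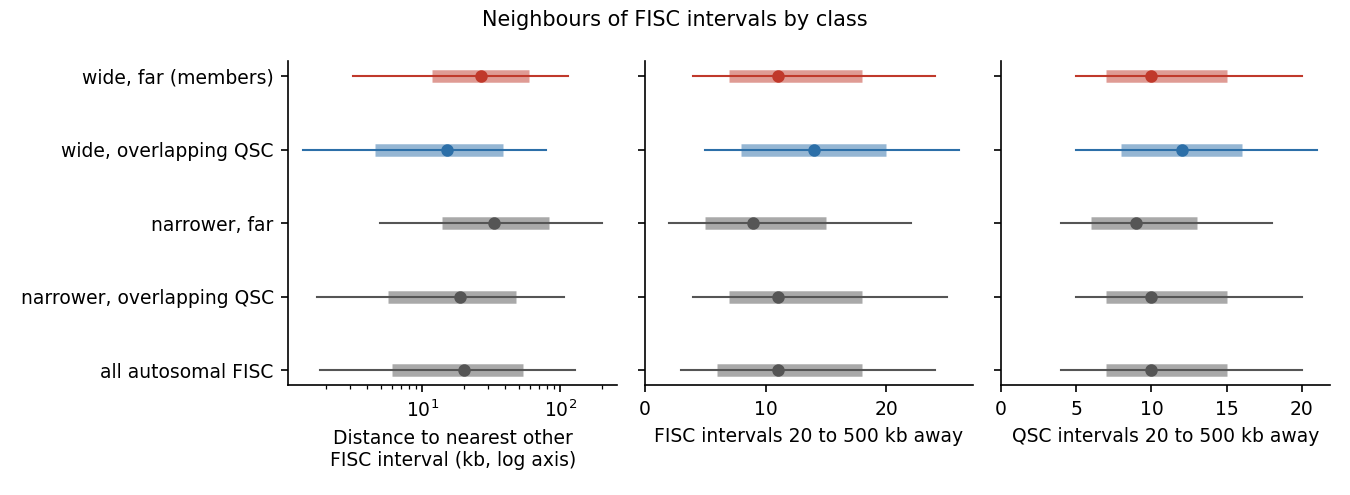
Distance to the nearest other FISC interval (left, kb, log axis) and number of FISC (middle) and QSC intervals (right) at 20 to 500 kb on each side, for members and 4 other classes of FISC intervals. Points are medians, thick bars run from the lower to the upper quartile and thin lines from the 10th to the 90th percentile; members have a median of 26.5 kb against 15.1 kb for wide intervals that overlap QSC, and the thick bars of the 5 classes shown overlap in each panel.

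Members took a larger share of the wide intervals where FISC intervals were sparse. With 0 to 4 other FISC intervals in the ring, 167 of 455 wide intervals were members (36.7%, 32.4 to 41.2). The share was 29.5% (26.9 to 32.3) with 5 to 9 neighbours, 23.02% (20.5 to 25.8) with 10 to 14, and 19.3% (16.8 to 21.9) with 20 to 29. With 30 to 51 neighbours it was 19.9% (15.3 to 25.5). The far share of all autosomal FISC intervals went the same way, from 58.0% with 0 to 4 neighbours to 26.7% with 30 to 51. Overlapping wide intervals went from 54.3% to 65.4%. The distance to QSC chose the members and moves with the density of both lists, so nothing is read from this trend. Wide intervals made up 17.0% of all autosomal FISC intervals with 0 to 4 neighbours and 35.2% with 30 to 51. Width thus moved with density too, and the fall of the far share with width was not separated from density.

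Members were found on all 19 autosomes in similar shares of the wide intervals. The lowest share was 20.1% on chromosome 15 (44 of 219, 15.3 to 25.9) and the highest 30.2% on chromosome 3 (62 of 205, 24.4 to 36.8). Under other limits only chromosomes 15 and 3 were recomputed, so the place of chromosome 15 among the 19 was not tested. With no QSC interval within 50 kb, its share was 10.5% and that of chromosome 3 14.1%, beside 10.2% on all autosomes. Chromosome 15 stayed below all autosomes at 500 bp or more (15.1% against 22.04%) and with the 5 kb limit (24.7% against 28.7%). The same held with midpoint distances (21.0% against 25.6%) and with widths from about the median of the FISC list up (27.3% against 31.0%). Chromosome 11 was the one autosome whose interval left out the overall 25.2%. There 80 of 391 wide intervals were members (20.5%, 16.8 to 24.7), and 247 were comparison intervals. With 19 intervals at the 95% level set against the overall share, nothing is read from this one. Chromosome 11 still held the most members per length, 6.74 per 10 Mb, and the most comparison intervals, 20.8 per 10 Mb. Its members were also nearest to QSC, at a median of 26.96 kb, against 52.9 kb on chromosome 15. The lowest density was 3.01 members per 10 Mb, on chromosome 6. The X chromosome, outside the rule, held 38 FISC intervals of at least 440 bp, 19 of them over 10 kb from QSC (95% Wilson interval of the share 34.8% to 65.2%).

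**Figure D4:**
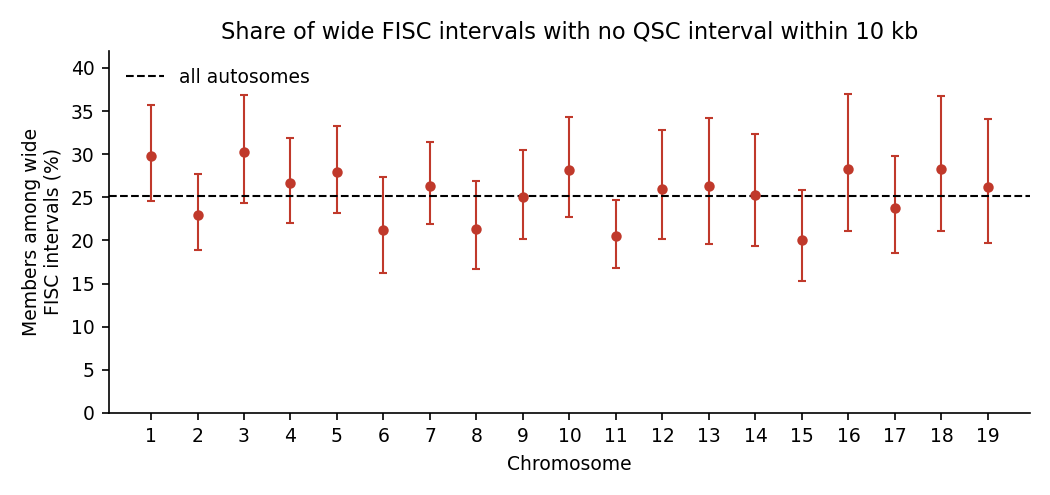
Members as a share of FISC intervals of at least 440 bp (y axis, %) on each autosome (x axis). Points are shares, bars are 95% Wilson intervals for counting error, and the dashed line is the 25.2% of all autosomes, which the bar of chromosome 11 alone does not reach.

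Along the chromosomes members were spread much as the list was. The first 20% of the span from the first to the last FISC interval of a chromosome held 15.6% of members (13.6 to 17.9), 16.7% of comparison intervals and 16.2% of all autosomal FISC intervals. The last 20% held 27.7% of members (25.2 to 30.4), 30.4% of comparison intervals (28.7 to 32.1) and 27.6% of all.

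Most QSC-free stretches with a member held 1 of them. All but 2 members lay between a pair of QSC intervals, in 1003 such stretches. Of these stretches 911 held 1 member, 81 held 2 and 11 held 3, the most found. Of the 14634 autosomal stretches long enough to hold a member, 6.85% did, while 40.1% held a FISC interval of some width. Stretches with a member had a median length of 165 kb, with quartiles of 89.9 and 291 kb, against 133 kb for the long enough stretches with any FISC interval and 100.3 kb for all long enough stretches. Nothing is read from the greater length, since a member needs 10 kb free on each side and a longer stretch has more room for any interval. In 359 of them (35.8%) the member was the sole FISC interval, and in 68 there were 5 or more FISC intervals. Another member stood within 10 kb of 52 members (4.69%) and within 100 kb of 217 (19.6%). There were 26 adjoining pairs within 10 kb, the closest 252 bp (0.252 kb) apart. Matching counts for other classes were not made, so nothing is read from the grouping of members.

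The 8 longest of the stretches with 3 members show how members sit among narrower FISC intervals. The longest ran over 867 kb at chr1:9259403-10126338 and held 8 FISC intervals. Its members were chr1:9535293-9535895 (603 bp), chr1:9762810-9763256 (447 bp) and chr1:10029450-10030039 (590 bp), and the other 5 intervals measured 250 to 435 bp. The next, chr4:117625647-118261217 (636 kb), held 9, with members of 443, 453 and 504 bp at chr4:117762510-117762952, chr4:118100642-118101094 and chr4:118238790-118239293. Measured from the centre of the stretch, the members lay from -157 to 337 kb in the first and from -181 to 296 kb in the second.

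Shorter stretches leave less room, so nothing is read from the closer spacing of members there. At chr1:169012771-169436321 (424 kb) the members chr1:169142293-169142826 (534 bp), chr1:169300005-169300551 (547 bp) and chr1:169344843-169345394 (552 bp) were 90.9 to 136 kb from QSC, with 4 narrower intervals. At chr3:58590194-58980651 (390 kb) the members chr3:58786570-58787189 (620 bp), chr3:58810520-58811081 (562 bp) and chr3:58882905-58883454 (550 bp) stood among 6 narrower ones. The last 2 members each had a narrow FISC interval close by, of 247 bp at 0.925 kb and of 312 bp at 1.28 kb. The members of this stretch lay from 1.46 to 97.8 kb of the centre, all on 1 side of it. At chr2:58329726-58706736 (377 kb) the members measured 442, 532 and 469 bp, and the middle one, chr2:58517831-58518362, had a FISC interval of 345 bp at 2.07 kb.

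In the last 3 stretches members also stood among narrower FISC intervals, but their positions in the stretch differed. At chr15:83527204-83884495 (357 kb) the widest member was chr15:83687555-83688338 with 784 bp, 160 kb from QSC. Another, chr15:83589390-83589842 (453 bp), stood between narrow intervals of 318 and 278 bp at 1.92 and 1.20 kb. The members of this stretch lay from -147 to -17.9 kb of the centre, all on 1 side of it. At chr17:36198174-36408448 (210 kb) the members measured 537, 454 and 440 bp, and chr17:36247680-36248216 had a FISC interval of 295 bp at 3.04 kb. These members lay from -55.4 to 91.0 kb of the centre, on both sides of it. At chr5:33517670-33723302 (206 kb) they measured 632, 525 and 517 bp, and chr5:33613149-33613673 had one of 381 bp at 4.12 kb.

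**Figure D5:**
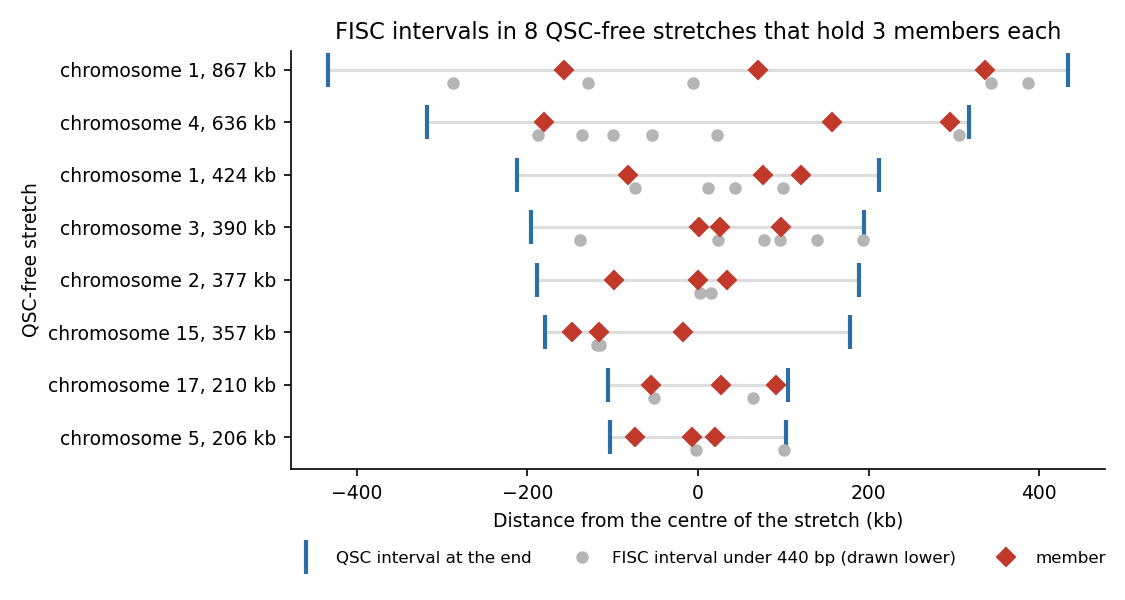
Position of FISC intervals (x axis, kb from the centre of the stretch) in 8 QSC-free stretches with 3 members each (y axis, chromosome and length). Red diamonds are members and blue bars are the QSC intervals at the ends. Grey points are FISC intervals under 440 bp, drawn slightly lower to stay visible. Members lie from -157 to 337 kb in the 867 kb stretch and from -55.4 to 91.0 kb in the 210 kb stretch. In the stretches of 390 and 357 kb they lie on 1 side of the centre, from 1.46 to 97.8 kb and from -147 to -17.9 kb.

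By fixed windows of 1 Mb, 771 of 2108 windows with an autosomal FISC interval (36.6%) held a member, and 235 of these held no comparison interval. The matching count over all 2108 windows is not given here, so nothing is read from the 235. No window held more than 5 members, and 5 windows reached that number. A pair of them adjoins, at 96 to 97 Mb and 97 to 98 Mb of chromosome 11. In the first, 5 members of 464 to 515 bp stood beside 3 comparison intervals, among 31 FISC and 14 QSC intervals. In the second, 5 members of 457 to 828 bp stood beside 4 comparison intervals, among 30 FISC and 21 QSC intervals. The widest of the 10 was chr11:97293196-97294023, 828 bp long and 31.1 kb from QSC. The distances of these 10 members to QSC ran from 10.3 to 66.5 kb.

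The 3 remaining windows differed in how many comparison intervals they held. At 169 to 170 Mb of chromosome 1, 5 members stood beside 1 comparison interval, among 14 FISC and 9 QSC intervals, and every one of them was 90.9 kb or more from QSC. At 137 to 138 Mb of chromosome 5, 5 members of 444 to 564 bp stood beside 4 comparison intervals, among 27 FISC and 21 QSC intervals. Of these, 3 members shared 1 QSC-free stretch, 60.3 to 84.7 kb from QSC, namely chr5:137582838-137583287, chr5:137598330-137598893 and chr5:137607311-137607754. The other members of the window, chr5:137231429-137231942 and chr5:137438339-137438838, lay 12.5 and 16.7 kb from QSC. At 121 to 122 Mb of chromosome 9, 5 members of 444 to 590 bp stood beside 5 comparison intervals. There, chr9:121017240-121017683 and chr9:121124628-121125217 lay 129 and 136 kb from QSC, and the other 3 between 10.3 and 20.5 kb.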

How the data were processed

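CTCF ChIP-seq peak lists of FISC and QSC were used, 1 list per state. The authors deposited them as starts and ends of intervals, with no counts. Per the submitters' processing notes, coordinates are mm9, and HOMER, MACS2, Picard and Bowtie2 2.2.3 were used, without their roles. Not given in the sources used here are the calling threshold, the use of the input libraries and how 2 ChIP libraries entered 1 list. On 9 autosomes the lists reach past the end of the last gene in the GRCm38 table, so that table was used for no position, and the planned annotation, gene lists and motif searches were not run.

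Distances and classes were computed with Python 3.11.15, numpy 2.4.6, scipy 1.17.1 and pandas 2.3.3 and tested on simulated lists. An overlap needed 1 bp. bedtools 2.31.1 found the same 1108 members and 2780 comparison intervals. The members and the quantities described were chosen with earlier results of these data known. Intervals named are the 5 widest and the 5 farthest members, those nearest to the limits, up to 8 QSC-free stretches and the 5 windows of 1 Mb with the most members, and others inside those stretches and windows. None on chromosome 18 is named. Alternatives changed the limits, the distance measure, the comparison intervals and the windows.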

Additional observations from a re-analysis of the deposited data

How the results depend on the processing

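Of 66 values recomputed under 13 alternatives, 44 stayed within the limits set for them (the 95% interval of the reported value, or 1.5 times a count) and 22 moved. Some of the 44 could not move, such as values of members where only the comparison intervals changed. Spacing of comparison intervals likewise could not move where only the distance limit to QSC changed. The tally therefore adds no support. The number of members depends on the limits: 2690 (31.0% of the wide intervals) with widths from about the median of the FISC list up, 467 (22.04%) at 500 bp or more, and 449 (10.2%) with no QSC interval within 50 kb. The share was 28.7% with no QSC interval within 5 kb and 27.2% against the QSC list without its narrowest 10%. Members had the longer median distance to the nearest FISC interval in 10 of 10 alternatives, and fewer FISC intervals around them in 9 of 9. Every alternative kept a distance rule to QSC, which bears on both orders, and some changed the comparison intervals only. The repeated order therefore adds no support. That distance was 23.2 kb for members with the 5 kb limit and 51.2 kb with the 50 kb limit. Counting FISC neighbours of 440 bp or more, it was 97.7 kb for members and 67.2 kb for comparison intervals, and beyond 10 kb 35.5 and 30.1 kb. Joining FISC intervals within 1 kb gave 17.5 kb for comparison intervals. Members had a median of 9 FISC intervals within 500 kb with the 50 kb limit. Within 250 kb the medians were 6 for members and 8 for comparison intervals. These alternatives change the limits, neighbours or windows by construction, and no other cause was tested. A stricter calling threshold was not run, as the lists hold no score. No paired analysis was possible because the lists give nothing for single libraries, which also kept replicates from being left out. Depth is unknown and limits every statement on intervals missing from the QSC list.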
